A study of Homo sapiens with 6 samples.

Results

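The ZNF genes are the numbered zinc finger genes of the human genome, and the 293 described here are those with a symbol of ZNF, a number and at most 1 further letter that were expressed in sh-control HEK293T cells. They were chosen by a mean over the 3 sh-control libraries of at least 10 CPM, which are counts scaled to a total of 1000000 reads on genes in each library, from 510 ZNF genes among the 24635 genes of the merged count table. HEK293T is a human embryonic kidney cell line that carries the SV40 large T antigen. The cells were made into stable lines with a lentiviral short-hairpin RNA, either sh-control, a nonspecific hairpin, or sh-*RREB1*, a hairpin against *RREB1*, were selected with neomycin, and grew in DMEM with serum. There were 3 libraries per group, made from total RNA with a strand-specific kit. The sources do not say whether the libraries of a group came from separate cultures, so p-values here measure only the spread between these libraries, and each group stands for 1 hairpin.

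Most ZNF proteins carry a row of C2H2 fingers, small folds in which a pair of cysteines and a pair of histidines hold a zinc ion and a few side chains read DNA bases. The largest class adds a KRAB box, which binds the corepressor TRIM28. TRIM28 brings in the histone methyltransferase SETDB1, heterochromatin protein 1 and NuRD, and so KRAB proteins silence transposable elements, imprinted regions and other loci. Many KRAB genes arose by tandem duplication and stand in clusters on chromosome 19. ZNF proteins without a KRAB box are a mixed set that includes promoter activators, corepressor subunits and RNA-binding proteins. RREB1, the target of the hairpin, is itself a C2H2 zinc finger transcription factor, although its symbol is not a ZNF symbol.

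The fingers are joined by a short linker that is close to identical from gene to gene, and its coding sequence is shown because the genes hold it in common. The translated proteins were searched for the exact residues HTGEKPY, which are the consensus linker with a finger residue on each side. A match was found in 74.4% of the members with a coding sequence and in 2.25% of all 20038 coding genes. Linkers with other residues inside or beside them were not counted. The first copy in 4 members with large decreases is given 5′ to 3′ on the coding strand, with the bases that are the same in all 4 in capitals (15 of 21).
*ZNF28* (chr19:52800780-52800800, minus strand): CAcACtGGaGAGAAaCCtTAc
*ZNF468* (chr19:52841481-52841501, minus strand): CAcACtGGtGAGAAaCCtTAc
*ZNF221* (chr19:43966328-43966348, plus strand): CAcACaGGaGAGAAaCCtTAt
*ZNF605* (chr12:132926708-132926728, minus strand): CAtACaGGaGAGAAgCCcTAt
Coordinates are on GRCh38, and each stretch lies within a coding exon. Members with a KRAB match held a median of 5 copies of this exact stretch and members without one held 1.

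Of the 293 members, 289 are annotated as protein coding and 4 as pseudogenes. Their proteins had a median of 11 C2H2 finger matches and at most 36, in *ZNF142*, and all but 4 had at least 1. A KRAB A-box pattern was matched in 174 proteins and not in 115. The pattern misses divergent KRAB boxes, so the second class holds some KRAB proteins, such as *ZNF202* and *ZNF263*. How many it holds was not determined. Chromosome 19 carried 120 of the 293 members, 107 of them with a KRAB match, and chromosome 7 followed with 20. Exons of members had a median GC content of 43.3%, compared to 47.1% over all 23345 genes tested, and a median length of 6195 bases.

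In reads on genes the libraries ranged from 23362197 to 33044061 in sh-control and from 12257054 to 26145877 in sh-*RREB1*. In sh-*RREB1* replicate 3, 52.1% of the reads had several alignments and were not counted, where the other libraries had 3.66% to 7.63%. The target *RREB1* was at 27.1, 25.2 and 26.6 CPM with sh-control, against 23.7, 24.6 and 23.1 CPM with sh-*RREB1* (log2 fold change −0.14, edgeR adjusted p = 0.485). The groups did not overlap, but the difference did not pass the test. With the GC and length correction described further on it had −0.36 (edgeR adjusted p = 0.0534), and each direction below rests on the labels. Of 6 HEK293 markers 5 were expressed in every library, with *VIM* at 320 CPM or more, while *PAX2* was at 0.49 CPM or less. The 6 summed to 419 to 471 CPM with sh-control and to 735 to 834 CPM with sh-*RREB1*, and the cause of this difference was not tested. The 9 markers of other cell types summed to 1.07 to 1.54 CPM with sh-control and 1.14 to 7.88 CPM in sh-*RREB1*, with *CD3E* at 0, and their part in the results was not tested. In these bulk libraries fewer cells of a type and less RNA per cell cannot be told apart.

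Levels in sh-control are a description, since they chose the members. Over the 293 members the mean, now scaled by TMM as are all levels that follow, ranged from 10.4 to 734 CPM with a median of 30.1 CPM, 92 members were below 20 CPM, and the 10 highest took 23.3% of the sum. Members on the edge of the minimum were *ZNF485* and *ZNF461*, at 10.3 and 10.4 CPM before TMM scaling, while *ZNF174* and *ZNF324B*, at 9.82 and 9.79 CPM, were left out. A member had at least 44 reads in every library, with a median of 657 reads, so no member was near the limit of detection.

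The most abundant member was *ZNF638*, whose protein binds cytidine-rich DNA and takes part in the silencing of unintegrated retroviral DNA. It was at 796, 721 and 684 CPM with sh-control (replicates 1, 2 and 3), against 528, 485 and 495 CPM in the sh-*RREB1* replicates. All sh-*RREB1* libraries were below all sh-control libraries, with a log2 fold change of −0.55 (95% confidence interval −0.78 to −0.31, edgeR adjusted p = 0.00951). *ZNF146*, a protein of little more than fingers, was at 369, 351 and 326 CPM with sh-control, against 231, 223 and 225 CPM with sh-*RREB1*, also without overlap (log2 fold change −0.62, edgeR adjusted p = 0.00543). Per kilobase of exon it had the highest level of all members, 84.2 CPM per kilobase in sh-control, followed by *ZNF24* at 59.3 and *ZNF638* at 58.8 CPM per kilobase.

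*ZNF24*, a SCAN-domain factor, was at 510, 484 and 473 CPM with sh-control, against 478, 363 and 443 CPM with sh-*RREB1*. The groups overlapped, and the log2 fold change of −0.19 did not pass the test (confidence interval −0.46 to 0.08, edgeR adjusted p = 0.302). With the GC and length correction its sign turned, to 0.03. *ZNF644*, a partner of the histone methyltransferases G9a and GLP, was at 450, 384 and 365 CPM with sh-control, against 369, 252 and 325 CPM with sh-*RREB1*, with overlap (log2 fold change −0.34, edgeR adjusted p = 0.151). *ZNF664*, at 351, 302 and 316 CPM and then 268, 225 and 257 CPM, had a log2 change of −0.37 (edgeR adjusted p = 0.0466), and passed 0.05 in none of the 6 fits that left out 1 library.

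Compared with sh-control, the members as a group were lower in sh-*RREB1*. Their median log2 fold change was −0.35 (quartiles −0.69 and −0.09), beside a median of 0.01 over all 23345 genes tested and −0.09 over the 8834 genes that met the same minimum of 10 CPM. At an adjusted p below 0.05 in edgeR's quasi-likelihood test, 119 members were lower and 6 were higher. Among all genes tested 8.81% were lower and 10.8% higher at that threshold, and among genes at 10 CPM or more 17.9% were lower and 9.42% higher. With the study's stricter thresholds, which take an adjusted p under 0.01 and a log2 fold change past 1 in either direction, 18 members were called lower and 1 was called higher. The background of those calls over all genes was 0.698% lower and 2.71% higher, so most called genes of the whole table rose while most called members fell.

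The libraries of the 2 groups did not overlap for 168 members that were lower and 20 that were higher. Over all genes 20% were lower without overlap and 21.1% higher, and over genes at 10 CPM or more 34.4% were lower and 18.8% higher. Summed over the members, the level was 15644, 14394 and 14086 CPM with sh-control (replicates 1, 2 and 3), against 12620, 11268 and 11778 CPM in the sh-*RREB1* replicates. The minimum of 10 CPM was set on the sh-control libraries, which favours members whose sh-control level lies high, so the counts of members are a description. Chosen by the sh-*RREB1* libraries in the same way, 283 ZNF genes had −0.28 as the median log2 fold change, with 91 lower and 16 higher at 0.05 and 6 called lower and 4 called higher. Chosen by all 6 libraries, 292 had a median of −0.31, with 107 lower and 11 higher.

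Several of these counts rested on single libraries. Without sh-control replicate 2 the members called lower went from 18 to 0 and those lower at 0.05 to 62. Without sh-*RREB1* replicate 1, 0 members were called lower while 104 were lower at 0.05, and without sh-*RREB1* replicate 3 the counts were 0 and 50. Without sh-*RREB1* replicate 2, 5 were called lower, and without sh-control replicate 3, 11. The single call of a higher member was lost in each of these 5 fits, and the members higher at 0.05 went to 0 without sh-control replicate 2 and to 2 without sh-*RREB1* replicate 3. At an unadjusted p below 0.05 the same edgeR fits without 1 library counted from 127 to 155 members lower and from 9 to 13 higher, and with all libraries 153 and 14. The median log2 fold change stayed between −0.43 and −0.36, and 49 of the 119 members were lower at 0.05 in each of the 6 fits.

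**Figure D1:**
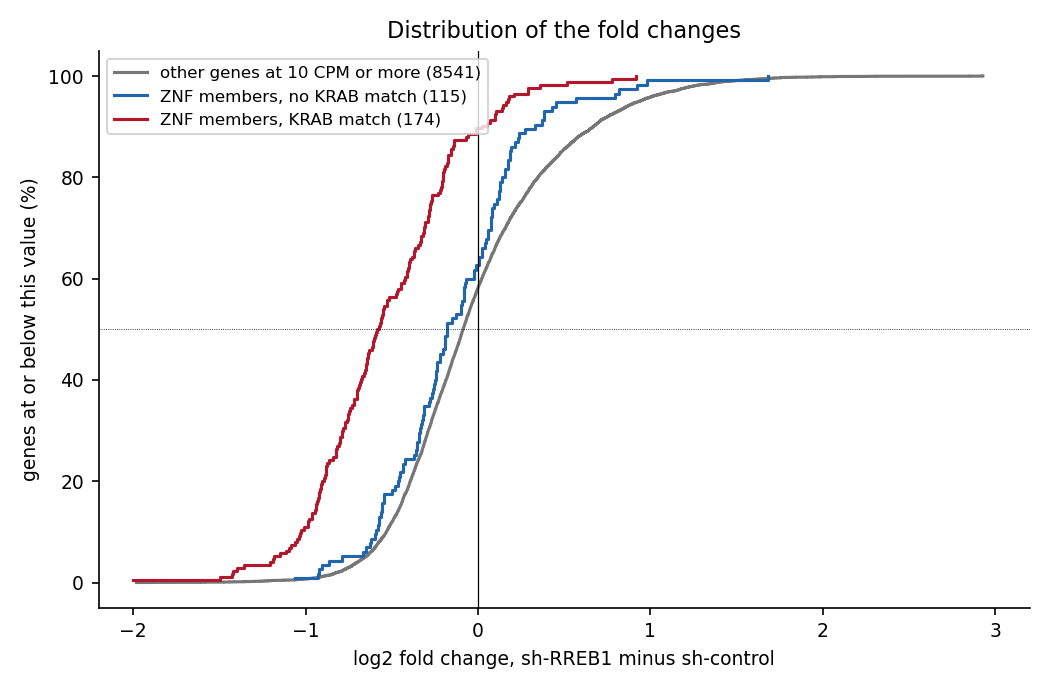
Cumulative distribution of the log2 fold change (x axis, sh-RREB1 minus sh-control, edgeR) in percent of genes (y axis) for 174 ZNF members with a KRAB match, 115 without one and 8541 other genes at 10 CPM or more. The curve of the KRAB members lies to the left, with a median of −0.58, while the members without a match have a median of −0.18 and the other genes −0.09.

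The KRAB class held 98 of the 119 members lower at 0.05, and the difference between the classes was not itself tested. The class without a match holds KRAB proteins that the pattern missed, so the classes are not fully separated. The 174 members with a KRAB match had −0.58 as the median log2 fold change, with 1 member higher at an adjusted p below 0.05, and 17 of the 18 members called lower were among them. The 115 without a match had a median of −0.18, with 20 lower and 5 higher. These were 17.4% and 4.35%, beside 17.1% and 9.67% of the other genes at 10 CPM or more. In the KRAB class 56.3% were lower. After the correction for GC content, 101 KRAB members were lower and 7 higher, and 36 of those without a match were lower and 14 higher. Without a match these were 31.3% and 12.2%, beside 19.8% and 13.5% of the other genes. The level of each library showed the same order. Relative to the mean of the 6 libraries, the median log2 deviation of the KRAB members was 0.38, 0.27 and 0.23 in the sh-control replicates and −0.22, −0.35 and −0.31 in the sh-*RREB1* replicates. For members without a match it was 0.16, 0.08 and 0.05 in sh-control and −0.05, −0.06 and −0.10 in sh-*RREB1*. The deviations of the 2 groups of libraries did not overlap in either class, and they were further apart in the KRAB class. In the other genes at 10 CPM or more the deviations did not overlap either. They were 0.07, 0.06 and 0.05 in sh-control and −0.03, −0.04 and −0.04 in sh-*RREB1*.

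The nearest comparison is with 53 genes of the ZFP, ZSCAN, ZKSCAN and ZBTB families at the same minimum, which encode C2H2 fingers under other names. Their median log2 fold change was −0.24, with 14 lower and 2 higher at 0.05. These were 26.4% and 3.77%, beside 17.9% and 9.42% of genes at 10 CPM or more. The 11 of them with a KRAB match had a median of −0.54 and 6 were lower, while the 42 without one had a median of −0.17 and 8 were lower. Over the 53 genes the median deviations of the libraries did not overlap. They were 0.20, 0.09 and 0.10 in sh-control and −0.11, −0.12 and −0.09 in sh-*RREB1*.

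**Figure D2:**
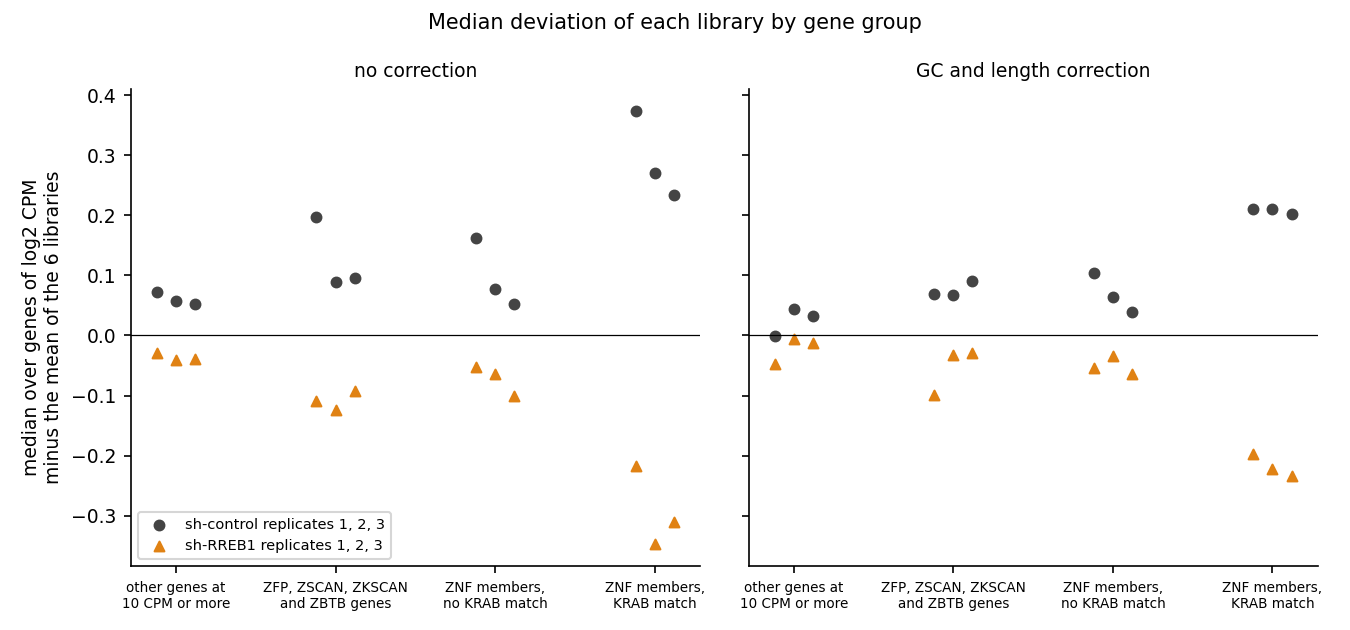
Median over genes of the log2 CPM minus the mean of the 6 libraries (y axis) for 4 groups of genes (x axis), without (left) and with (right) the correction for GC content and length. Circles are the sh-control and triangles the sh-RREB1 replicates, and the 2 groups are furthest apart in the KRAB members on both sides (0.21, 0.21 and 0.20 against −0.20, −0.22 and −0.23 with the correction).

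The largest decrease was in *ZNF28*, a KRAB gene of chromosome 19 (ENSG00000198538, chr19:52797408-52857600, minus strand) with 15 finger matches. It was at 17.1, 14.5 and 13.5 CPM with sh-control, against 4.23, 3.51 and 3.49 CPM in the sh-*RREB1* replicates, from 394, 395 and 433 reads and then 105, 92 and 44. The mean fell from 15.0 ± 1.88 CPM to 3.74 ± 0.419 CPM (SD, n = 3 each), a log2 fold change of −2.0 (standard error 0.18, confidence interval −2.41 to −1.59, edgeR adjusted p = 0.00158). Its neighbour *ZNF468* (chr19:52838010-52857649, minus strand) was at 14.7, 13.8 and 13.2 CPM with sh-control, against 5.80, 4.09 and 4.83 CPM with sh-*RREB1* (log2 fold change −1.50, edgeR adjusted p = 0.00315). The groups were far apart for both. In Gencode version 44 these genes overlap by 19591 bases on the same strand, and reads on more than 1 gene were not counted, so their counts may be partial. The counts were made with an older Gencode version, in which the overlap was not examined.

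*ZNF221* lies in another chromosome 19 cluster (chr19:43951223-43967709, plus strand). It was at 13.1, 13.3 and 13.2 CPM with sh-control, against 4.91, 4.2 and 5.79 CPM with sh-*RREB1*, a log2 change of −1.42 (edgeR adjusted p = 0.00317). *ZNF605* stands on chromosome 12 (chr12:132918306-132956306, minus strand) and was at 32.2, 24.6 and 24.2 CPM against 11.4, 10.4 and 8.16 CPM (log2 fold change −1.42, edgeR adjusted p = 0.00365). Both are KRAB genes with 15 and 17 finger matches, and in both the lowest sh-control library was above 2 times the highest sh-*RREB1* library. *ZNF256*, with 12, 10.7 and 10.8 CPM with sh-control, against 3.78, 4.85 and 4.04 CPM with sh-*RREB1*, had a log2 change of −1.40 (edgeR adjusted p = 0.00326).

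*ZNF549* fell from 14.2 ± 0.417 to 5.51 ± 0.519 CPM (SD, n = 3 each), a log2 change of −1.36 (edgeR adjusted p = 0.00261). *ZNF235* was at 27.4, 25.1 and 23.4 CPM with sh-control, against 11.8, 10.8 and 10.9 CPM with sh-*RREB1* (log2 fold change −1.18, edgeR adjusted p = 0.00318). Both genes overlap another member on the opposite strand, *ZNF550* and *ZNF227*, which the strand-specific counts keep apart. *ZNF699*, *ZNF761* and *ZNF627* followed, their log2 fold changes being −1.20, −1.19 and −1.10 (edgeR adjusted p = 0.00365, 0.0039 and 0.00371). The other 8 members called lower had log2 fold changes from −1.08 to −1.01. Of the 18, 15 lie on chromosome 19, and they had 11.2 to 49.4 CPM in sh-control, below the most abundant members. The minimum of 10 CPM was set on sh-control, and some of them, such as *ZNF549*, met it only there. Chosen by the sh-*RREB1* libraries instead, 6 ZNF genes were called lower, so these counts are a description. At an adjusted p below 0.05, 17 of the 18 were lower in all 6 fits made without 1 library, and all 18 with the GC and length correction.

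**Figure D3:**
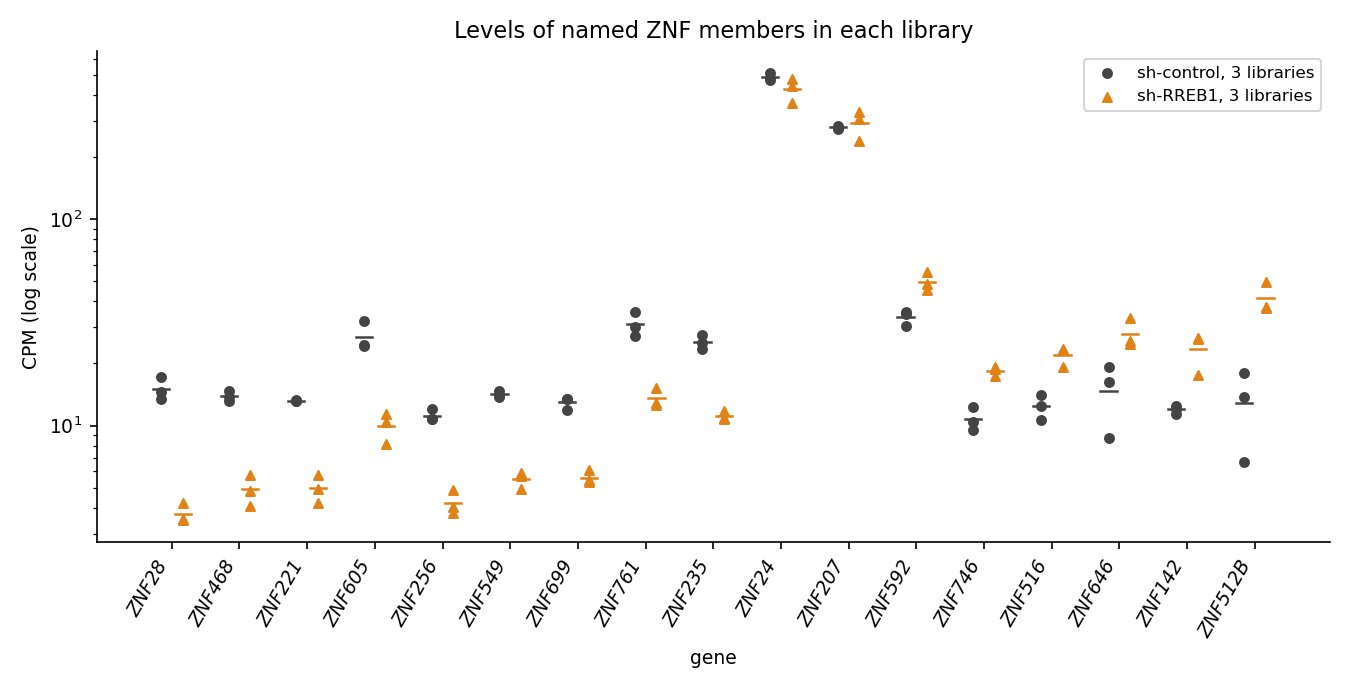
Level in CPM (y axis, log scale) of 17 ZNF members (x axis) in the 3 sh-control (circles) and 3 sh-RREB1 libraries (triangles), with a bar at each mean. From left to right are the 9 members with the largest decreases, ZNF24 and ZNF207 as abundant members that did not pass the test, and the 6 members higher at an adjusted p below 0.05. The groups are apart in the outer sets (ZNF28 at 13.5 to 17.1 against 3.49 to 4.23 CPM) and overlap in ZNF24 and ZNF207.

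Only 6 members were higher at an adjusted p below 0.05. *ZNF512B* (chr20:63956704-63969930, minus strand), whose protein binds the NuRD corepressor, was the one called. It was at 6.65, 13.8 and 18 CPM with sh-control, against 37.5, 49.4 and 37.0 CPM with sh-*RREB1* (log2 fold change 1.68, confidence interval 0.96 to 2.4, edgeR adjusted p = 0.00974). The sh-control libraries themselves spanned a wide range here, and replicate 1 was the lowest. *ZNF142* went from 12 ± 0.566 to 23.5 ± 5.14 CPM (SD, n = 3 each), a log2 change of 0.98 (edgeR adjusted p = 0.0105). *ZNF646* was at 8.70, 16.2 and 19.1 CPM with sh-control, against 25.6, 33.2 and 24.7 CPM with sh-*RREB1*, with a log2 change of 0.92 (edgeR adjusted p = 0.0454).

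*ZNF516*, a partner of the LSD1-CtBP corepressor, had a log2 fold change of 0.82 (10.6, 12.5 and 14.1 CPM against 19.2, 23.1 and 23.4 CPM, edgeR adjusted p = 0.0135). *ZNF746*, the KRAB protein also known as PARIS, a parkin substrate, had 0.78 (9.57, 10.4 and 12.2 CPM against 18.8, 19.2 and 17.4 CPM, edgeR adjusted p = 0.0127). *ZNF592*, a subunit of the ZMYND8-associated module with ZNF687 and ZNF532, had 0.57 (30.4, 34.9 and 35.5 CPM against 48.3, 55.8 and 45.5 CPM, edgeR adjusted p = 0.0212). In all 6 the libraries of the groups did not overlap. Their exons had 52.0% to 62.6% GC, above the median of the members.

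The fold changes were then set beside the GC content of the exons. Among the 8535 other genes at 10 CPM or more that had a GC value, higher exon GC went with a higher log2 fold change (Spearman's rho 0.56), and among the 293 members rho was 0.31. These are correlations across genes that share the same 6 libraries, and they describe the libraries. The members were divided into 4 bins of like size by GC content, and the other genes by the same limits. In the lowest bin, up to 40.4% GC, the median log2 fold change was −0.57 in KRAB members, −0.28 in members without a match and −0.27 in the other genes. In the second bin, up to 43.3%, these medians were −0.66, −0.24 and −0.25, and in the third, up to 46.9%, −0.69, −0.18 and −0.18. In the highest bin they were −0.18, 0.07 and 0.23. At like GC content the members without a KRAB match thus lay near the other genes in the first 3 bins, and the KRAB members lay lower in all 4. From the lowest bin to the highest, 46.5%, 69.1%, 66.7% and 28.6% of KRAB members were lower at an adjusted p below 0.05. The shares were 17.2%, 31.2%, 32% and 4.44% of members without a match and 26.3%, 29%, 22.5% and 4.55% of the other genes. With the GC and length correction the medians of the 2 classes in the highest bin were alike. They were −0.25 in KRAB members and −0.23 in members without a match, while the other genes had −0.03.

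**Figure D4:**
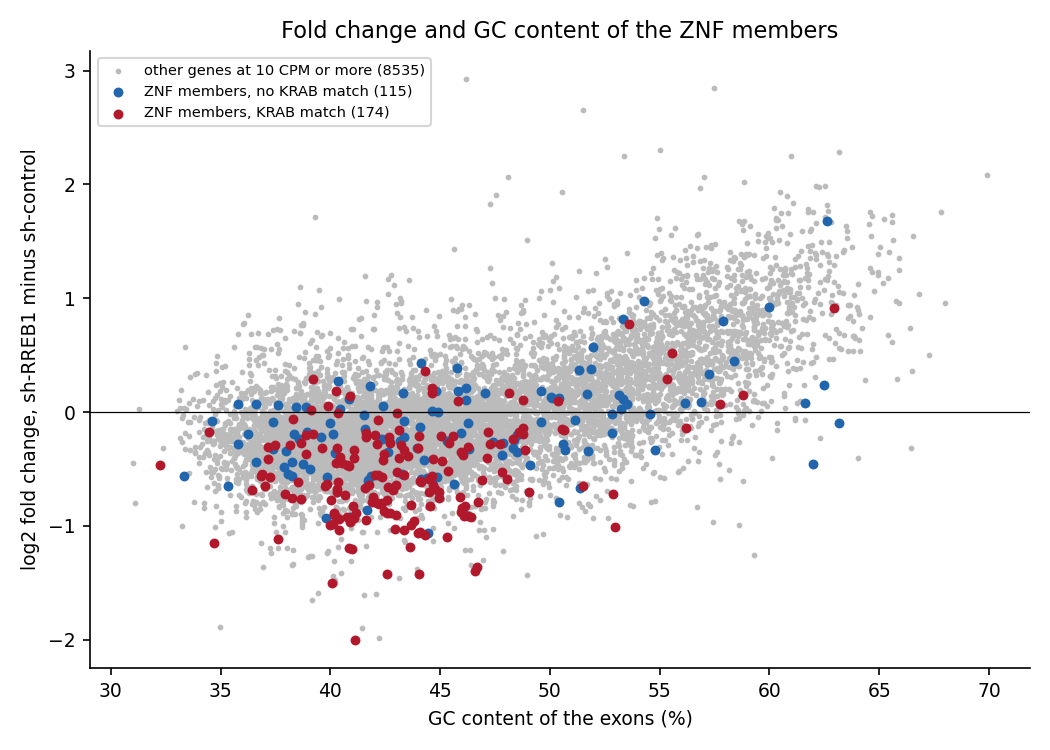
Log2 fold change (y axis, sh-RREB1 minus sh-control) against the GC content of the exons in percent (x axis) for 174 KRAB members, 115 members without a match and 8535 other genes at 10 CPM or more. The other genes rise with GC content (rho 0.56 across genes), most KRAB members lie between 35% and 50% GC and below 0, and ZNF512B, at 62.6% GC, is the member with the largest increase.

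When library-specific trends with exon GC and length were removed, the median log2 fold change of the members was −0.28 (−0.03 over all genes tested), with −0.41 for KRAB members and −0.14 for members without a match. At an adjusted p below 0.05, 138 members were lower and 21 higher, over a background of 11.7% and 10.4% of all genes. Among genes at 10 CPM or more the shares were 20.7% and 13.3%, with a median log2 fold change of −0.05. Past the stricter thresholds 11 were lower and 0 higher, over 1.2% and 1.82%, and 31 members were higher at an unadjusted p below 0.05 in that edgeR fit. Of the 119 members lower at 0.05 without the correction, 111 were lower with it. *ZNF28* kept −1.75, *ZNF549* −1.31 and *ZNF256* −1.27, while *ZNF512B* went from 1.68 to 0.57 and *ZNF646* from 0.92 to 0.04.

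With the correction 58 members had a lower log2 fold change than without it, and the sign turned in 36, from lower to higher in 22 and from higher to lower in 14. *ZNF503*, an NLZ-family protein in which the finger pattern was not matched, had the second largest corrected decrease. It was at 53.2, 41.7 and 37.7 CPM with sh-control, against 44.3, 22.9 and 29.2 CPM with sh-*RREB1*, and the groups overlapped. Its log2 fold change was −0.46 (edgeR adjusted p = 0.22), and −1.66 with the correction (standard error 0.40, edgeR adjusted p = 0.0118). *ZNF768* was at 42.9, 66.2 and 69.9 CPM with sh-control, against 47.3, 71.6 and 48.5 CPM with sh-*RREB1*. The groups overlapped here too, and the log2 fold change was −0.10 (edgeR adjusted p = 0.807), but −1.31 with the correction (edgeR adjusted p = 0.000106). The exons of *ZNF503* and *ZNF768* had 62.0% and 63.1% GC. *ZNF767P*, an annotated pseudogene with 60% GC, went from −0.26 to −1.15, and *ZNF251* on chromosome 8 from −1.01 to −1.27. The groups differ in their GC trends, and a true difference that follows GC content would be removed as well.

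By place, the 120 members on chromosome 19 had a median log2 fold change of −0.70, and 78 were lower at an adjusted p below 0.05. None was higher at that threshold in edgeR or in DESeq2, and 0 were higher at an unadjusted p below 0.05 in either tool. The correction gave 82 lower and 4 higher at 0.05 in edgeR. The 173 members on other chromosomes had a median of −0.22, with 41 lower and 6 higher. The 263 other genes of chromosome 19 at the same minimum, with a median GC content of 56.9%, had a median of 0.58, and 91 of them were higher and 6 lower, or 66 and 56 with the correction. With the GC and length correction these medians were −0.52 for members on chromosome 19, −0.17 for members elsewhere and 0.02 for the other genes of chromosome 19. Class and place overlapped. KRAB members had a median of −0.70 on chromosome 19 and −0.33 elsewhere, and the 13 members of chromosome 19 without a match had −0.58. These 13 may include KRAB proteins that the pattern missed, so class and place cannot be told apart in them.

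Members of chromosome 19 were joined into groups where neighbours lay within 1000000 bases. The group from *ZNF283* to *ZNF180* (chr19:43827321-44500524) had 13 members, and all 13 were lower at 0.05, with a median log2 fold change of −0.92. In the smaller group from *ZNF627* to *ZNF791* all 5 members were lower (median −0.96), as were both *ZNF675* and *ZNF254* (median −1.04). In the group from *ZNF146* to *ZNF573* 16 of 21 members were lower (median −0.79), from *ZNF175* to *ZNF761* 12 of 16 (median −0.70) and from *ZNF583* to *ZNF324*, at the end of the long arm, 20 of 31 (median −0.70). The group from *ZNF317* to *ZNF562* on the short arm had 3 of 8 lower (median −0.33), and the 3 members *ZNF546*, *ZNF780A* and *ZNF780B* had a median of −0.06. Chromosome 12 came next to chromosome 19, with 8 of 11 members lower and a median of −0.60, and chromosome 7 had 4 of 20 lower with a median of −0.23.

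**Figure D5:**
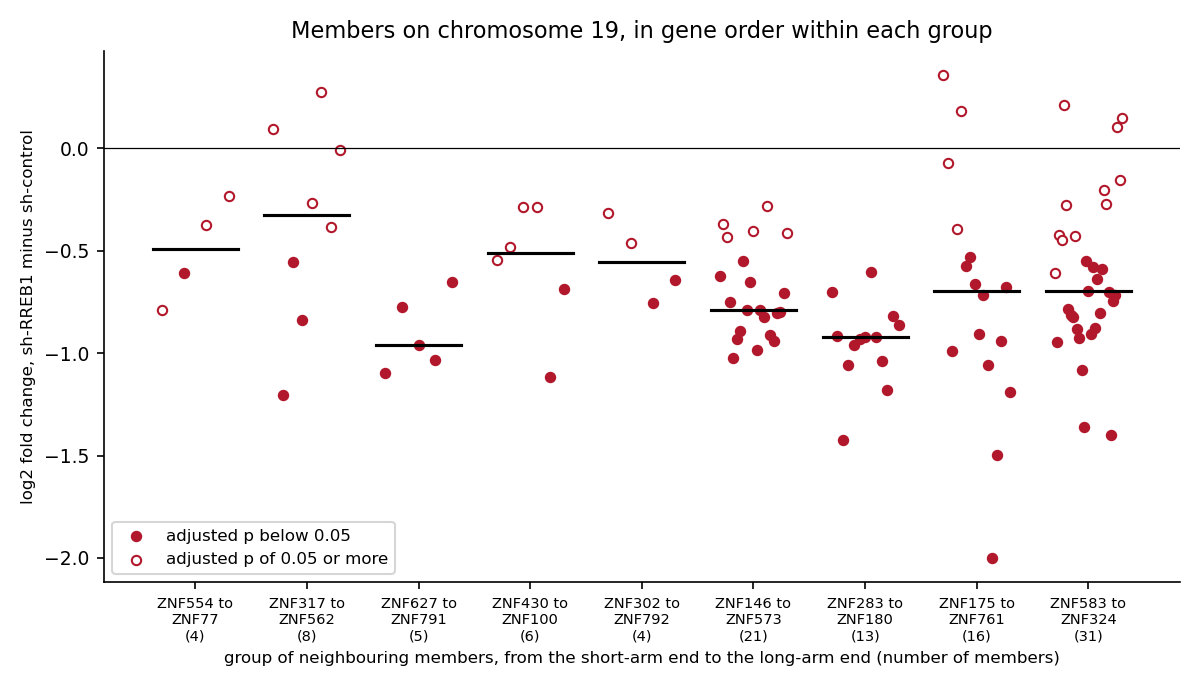
Log2 fold change (y axis) of the members on chromosome 19 in groups of neighbouring members (x axis, number of members in parentheses, groups of at least 4), in gene order within each group. Filled points have an adjusted p below 0.05, and bars are medians. All 13 points from ZNF283 to ZNF180 and all 5 from ZNF627 to ZNF791 are filled and below 0. The last 2 groups and the one from ZNF317 to ZNF562 hold members on both sides of 0.

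Because neighbours can be near-identical copies, the coding sequence of each member was compared with those of all other genes in windows of 50 bases. In 204 of 289 members less than 1% of the windows occurred in another gene, and the median log2 fold change of these was −0.31, and 76 were lower at 0.05. The other 85 had a median of −0.56, with 42 lower. Among KRAB members the medians were −0.57 for the 102 with few shared windows and −0.60 for the 72 with more. Among members without a match they were −0.14 for 102 and −0.35 for 13. *ZNF417* and *ZNF587*, paralogues whose proteins silence HERV-K elements, shared 66.6% of their windows with another gene, so their counts are uncertain. *ZNF417* was at 25.9, 24.8 and 22.6 CPM with sh-control, against 14.7, 15.5 and 14.9 CPM with sh-*RREB1* (log2 fold change −0.70, edgeR adjusted p = 0.0117), while *ZNF587* had 35.7, 32.1 and 36.0 CPM against 26.4, 27.5 and 32.2 CPM and did not pass (log2 fold change −0.27, edgeR adjusted p = 0.2).

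Zinc finger proteins with roles at retroelements, imprinted regions and heterochromatin were taken as a list of 10, of which 8 were members. The median log2 fold change of the 8 was −0.55, and 5 were lower and 0 higher at an adjusted p below 0.05. The share lower was 62.5%, beside 17.9% of genes at 10 CPM or more. It was near the 56.3% of all members with a KRAB match, whose median was −0.58. *ZNF274*, which recruits SETDB1 to the 3′ ends of ZNF genes, was at 24.3, 29.3 and 30.6 CPM with sh-control, against 14.7, 20.7 and 15.8 CPM with sh-*RREB1*, without overlap (log2 fold change −0.72, edgeR adjusted p = 0.0248). *ZNF445*, a guardian of imprinted regions, was at 131, 120 and 135 CPM against 87.7, 110 and 95.7 CPM (log2 fold change −0.40, edgeR adjusted p = 0.046). *ZNF10*, the source of the KRAB domain used in CRISPR interference, was at 16.6, 12.1 and 12.5 CPM against 8.45, 5.39 and 6.89 CPM (log2 fold change −0.99, edgeR adjusted p = 0.017). *ZNF420*, whose protein inhibits p53, was at 40.0, 37.4 and 32.7 CPM against 19.7, 16.5 and 19.5 CPM (log2 fold change −0.98, edgeR adjusted p = 0.00492). In these 4 genes every sh-*RREB1* library was below every sh-control library. *ZNF202* and *ZNF263*, whose KRAB boxes the pattern did not match, are counted in the class without a match and did not pass (log2 fold changes −0.24 and −0.35).

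Without the correction, the cofactors that KRAB proteins work through held both lower and higher genes. Of 23 genes tested from a list of TRIM28-SETDB1 heterochromatin partners, 8 were lower and 3 were higher at 0.05, with a median log2 fold change of −0.38. These were 34.8% and 13.0%, beside 17.9% and 9.42% of genes at 10 CPM or more. With the GC and length correction 8 were lower and 1 higher. The log2 fold change was then below 0 in 17 of the 23, with a median of −0.21. *TRIM28*, which has 62.5% GC, was at 58.3, 111 and 137 CPM with sh-control, against 197, 280 and 210 CPM with sh-*RREB1*, a log2 change of 1.17 (edgeR adjusted p = 0.0219) that went to 0.06 with the GC and length correction (edgeR adjusted p = 0.626). *SETDB1* was at 102, 117 and 118 CPM against 70.6, 98.2 and 78.5 CPM, without overlap (log2 fold change −0.44, edgeR adjusted p = 0.0592). It passed 0.05 with the correction (−0.44, edgeR adjusted p = 0.00672) and in DESeq2 (adjusted p = 0.034). *UHRF1*, which maintains DNA methylation, was the 1 gene of the list past the stricter thresholds, at 24.5, 27.4 and 32.7 CPM against 76.4, 61.6 and 60.7 CPM (log2 fold change 1.23, edgeR adjusted p = 0.00335, and 0.77 with the correction).

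Members with other roles were taken in 3 further lists, whose counts are to be read against the 17.9% of genes lower and 9.42% higher at 10 CPM or more. Of 12 measured members of corepressor and chromatin complexes, 2 were higher (*ZNF516* and *ZNF592*) and 2 lower at 0.05, and the median log2 fold change was 0.08. *ZNF217*, a subunit of LSD1-CoREST complexes, was at 52.0, 40.4 and 43.8 CPM with sh-control, against 35.2, 37.6 and 36.8 CPM with sh-*RREB1* (log2 fold change −0.31, edgeR adjusted p = 0.137). *ZNF687* was at 15.4, 27.8 and 30.7 CPM against 37.1, 50.3 and 41.1 CPM, without overlap, but did not pass 0.05 (log2 fold change 0.80, edgeR adjusted p = 0.0533), and had 0.13 with the correction. Of 7 members with roles in RNA binding, ribosomes and the spindle, 2 were lower and the median was −0.07. *ZNF106*, an RNA-binding protein, was at 284, 266 and 275 CPM against 169, 196 and 184 CPM (log2 fold change −0.59, edgeR adjusted p = 0.00736). *ZNF207*, which loads the checkpoint protein BUB3 onto kinetochores, was at 282, 275 and 277 CPM against 331, 240 and 306 CPM and did not pass (log2 fold change 0.07, confidence interval −0.22 to 0.37, edgeR adjusted p = 0.741).

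Of 7 promoter-binding activators, 2 were lower and the median log2 fold change was −0.19. *ZNF281* was at 208, 168 and 165 CPM against 135, 110 and 122 CPM (log2 fold change −0.56, edgeR adjusted p = 0.0196). *ZNF143*, which binds a bipartite element near the start of many genes, was at 57.5, 57.1 and 56.1 CPM with sh-control, against 37.6, 38.8 and 40.7 CPM with sh-*RREB1*. The groups were well apart, with a log2 fold change of −0.54 (confidence interval −0.80 to −0.29, edgeR adjusted p = 0.0128).

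The core letters of that element, ACTACA followed after any 3 bases by CCCAG, were searched on both strands of RefSeq promoters (GRCh38.p14, 250 bases before to 50 bases after the start), a search chosen after the values had been seen. They were present in 44 of 251 members with a promoter sequence (17.5%), in 3.07% of 7103 other genes at 10 CPM or more and in 1.48% of all 27305 genes of the table. Members with the element had a median log2 fold change of −0.74, and 28 of the 44 were lower at an adjusted p below 0.05. The 207 members without it had a median of −0.33, and 78 were lower, and this difference was not tested. Of the 44, 35 were KRAB members, and within the KRAB class the medians were −0.76 with the element and −0.48 without it. Over all members with the GC and length correction they were −0.51 and −0.24. Among the other genes at 10 CPM or more the 218 with the element had a median of −0.01 and the 6885 without it −0.09. There were 14 members called lower that had a promoter sequence, and the 4 shown need not be all of these that hold the element. The letters of the element are in capitals, and the sequences are given 5′ to 3′ on the plus strand.
*ZNF605* (chr12:132956294-132956323): cgcgcagaACTACAtttCCCAGcgtcccgc
*ZNF549* (chr19:57527222-57527251): tggtaggaACTACAccaCCCAGaatactgt
*ZNF235* (chr19:44305092-44305121): actcctggACTACAgttCCCAGaatgctcc
*ZNF773* (chr19:57499769-57499798): ccacgcgaACTACActgCCCAGaaggcgcc
The letters lie on the strand of the gene in *ZNF549* and *ZNF773* and on the opposite strand in *ZNF605* and *ZNF235*. *ZNF773* was also called lower (log2 fold change −1.08, edgeR adjusted p = 0.00562). A match is a description of the sequence, and whether a factor was bound there was not measured.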

How the data were processed

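RNA-seq counts of 6 HEK293T libraries were used, 3 sh-control and 3 labelled sh-*RREB1*. The authors aligned reads with STAR to hg38 with the Gencode annotation and deposited gene-level read counts without normalization, as single tables and 1 merged table. The sense-strand column was used. Reads on no gene (19.2% to 33.1% of aligned reads) and reads on several positions or genes stayed out of library sizes and tests. Members were found in the merged table, counting each gene once. With repeated lines in the totals 292 would meet the minimum.

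Where several identifiers had the same symbol, the one with most reads was kept, and genes with fewer than 10 reads in all were left out. edgeR 4.0.16 (quasi-likelihood test, TMM, condition only) in R 4.3.3 was fitted to 23345 genes with Benjamini-Hochberg adjustment over all of them, and CPM are TMM-scaled. DESeq2 1.42.0 was an alternative. The tests were tried on simulated data. The GC and length correction removed each library's trend (natural splines, 5 degrees of freedom) as an offset. Confidence intervals are at 95% and depth limits them.

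Named are the members called (at most 10 in each direction by size), those past 0.05 where fewer than 10 were called, the 5 highest by CPM and by CPM per kilobase, the members at the edge of the minimum, up to 10 with the largest corrected change, and genes of the lists. *ZNF773*, *ZNF771*, the overlapping neighbours and the genes at the ends of the chromosome 19 groups were named after their values were seen. The members and lists were chosen with earlier results of these data known. A protein table had been planned as the source of KRAB and finger matches. Instead, the Gencode version 44 coding sequence of each gene's canonical transcript was translated. Among the replicates the closest pair, sh-control 2 and 3, differed beyond sampling noise (chi-square of 4.73 for each degree of freedom), so all libraries counted as separate.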

Additional observations from a re-analysis of the deposited data

Results flagged for a closer look

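Reads on the strand opposite to the gene entered no comparison. *ZNF771* stood out among the members, since its opposite strand had over 2 times the depth-scaled reads in each sh-*RREB1* library that any sh-control library had. There were 102, 229 and 337 such reads in the sh-control replicates and 526, 801 and 343 in the sh-*RREB1* replicates, a mean of 7.54 ± 2.95 and 26.9 ± 4.30 reads per 1000000 reads on genes (SD, n = 3 each). On its own strand *ZNF771* was at 9.52, 13.4 and 14.2 CPM with sh-control, against 13.7, 12.9 and 13 CPM with sh-*RREB1*, with overlap. Over all members the opposite strand had 182, 172 and 172 reads per 1000000 reads on genes in sh-control and 190, 185 and 185 in sh-*RREB1*.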

How the results depend on the processing

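Depth and 3 libraries per group limited the precision, the GC trends differ between the groups, and the choice of members on sh-control raises their sh-control level. With DESeq2, other size factors, other read minimums, both strands or the merged table, 15 to 22 members were called lower and 109 to 135 were lower at 0.05, with a median log2 fold change of −0.38 to −0.32. No member was called higher with the minimum of 1 CPM in 3 libraries (0) or with both strands (0).

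With the GC and length correction 0 members were called higher and 11 lower, 21 were higher at 0.05, and the medians were −0.28 for members and −0.41 for KRAB members. Together with the replicate block these were 0, 12, 25, −0.28 and −0.41. The replicate block alone gave 10 higher and 136 lower at 0.05 and 20 called lower. The replicate numbers were not used as pairs, because the deviations of same-numbered libraries from their group means correlated at 0.50, 0.43 and −0.28, and not every library correlated best with its own number.

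Leaving out each library in turn, with and without the correction, gave 0 to 19 members called lower, 0 to 1 called higher, 50 to 138 lower and 0 to 26 higher at 0.05. The medians ran from −0.43 to −0.27 for members, −0.64 to −0.39 for KRAB members and −0.21 to −0.13 for members without a match.

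With other choices of members, 3 were called higher and 9 lower and 11 were higher at 0.05 with 10 CPM over all 6 libraries (median −0.089 without a KRAB match), and 4, 6 and 16 with 10 CPM over sh-*RREB1* (medians −0.28 for members, −0.45 for KRAB members and −0.072 without a match). A minimum of 5 CPM gave 2 called higher and 10 higher at 0.05. A minimum of 20 CPM gave 0 called higher, 5 called lower, 1 higher and 77 lower at 0.05. Every ZNF gene tested gave 5 called higher, 31 called lower and 29 higher at 0.05, and the median of those without a KRAB match turned to 0.023. The last choice and the correction with each library left out, other than sh-control replicate 1, were chosen after seeing the data.

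Of 966 values under 21 settings, for 46 genes whose fold changes the text gives, 10 changed sign. *ZNF24* turned to 0.033 with the correction, 0.035 with the replicate block as well and up to 0.056 (from −0.28) with libraries left out. *ZNF646* ran from −0.0048 to 1.13, *ZNF207* from −0.025 to 0.28 and *ZNF768* from −1.43 to 0.014 with libraries left out. Of the others, 107 no longer passed the stricter thresholds and 23 newly passed them. Over all 293 members the correction alone turned 36 signs. The cause of these changes was not tested.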
